A study of Mus musculus with 32 samples.

Results

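Clones of 9 genes for proteins of the large ribosomal subunit were followed on cDNA arrays of mouse fibroblasts: Rpl3, Rpl7a, Rpl13, Rpl26, Rpl27, Rpl32, Rpl35, Rpl37 and Rpl39. They were picked from the clones that the study listed for a changed ratio of polysomal to total RNA between its cell lines, so the polysomal difference between the lines chose them and is given below as a description, with no test. Rpl3 was picked as the gene listed with the opposite direction to the other 8. The row names in the deposited table are wrong: for 0 of the 9 clones did the row bearing its name hold the listed difference. Each clone was therefore found as the single row, of 15247, whose difference equalled the listed one to 6 digits. Both lines came from NIH 3T3 fibroblasts. In 3T3-tTA-eIF4E the removal of tetracycline switches on an eIF4E transgene (a TET-OFF system), and 3T3-tTA is the parental line with the transactivator alone.

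There were 16 arrays, 4 in each of 4 groups, and each clone was printed as duplicate spots that were averaged here. On arrays T9, T11, T13 and T15 total RNA of 3T3-tTA-eIF4E cells kept for 5 hr without tetracycline was hybridized with that of cells kept on it, and T1, T3, T5 and T7 did the same for 3T3-tTA. On arrays P1, P3, P5 and P7 RNA of the heavy polysomes of induced 3T3-tTA-eIF4E cells, treated with cycloheximide before lysis to hold ribosomes in place, was set against total RNA, and on P9, P11, P13 and P15 that of 3T3-tTA cells. The labels call the total RNA on P1 to P7 uninduced and the study's methods call it induced, and the methods were followed. Both lines lost tetracycline in the treated groups, so the parental arrays hold the effect of the medium. The 4 arrays of a group came from 2 RNA extractions, each hybridized with both dye orientations, and n = 4 arrays is therefore 2 independent preparations. Nothing says that the extractions were separate cultures, and the p-values below then measure only the spread between them. Of 10 markers of fibroblasts and epithelium that were looked up, 1 (Col1a2) had a named clone, so the cell type was not checked.

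Ribosomal proteins of the large subunit surround the ribosomal RNA that joins amino acids, line the tunnel through which the new chain leaves, and hold the factors that meet it at the exit. Their mRNAs belong to the class with a 5′ terminal oligopyrimidine tract, a cytidine followed by a run of pyrimidines at the cap, through which their entry into polysomes follows growth signals such as mTOR. The cap-binding factor eIF4E recruits mRNAs to the ribosome, and a heavier polysome holds more ribosomes per mRNA.

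Because such tracts are the best known regulatory feature of these mRNAs, the stretches around the annotated start are shown first. RefSeq (GRCm38.p6) had a start region for 7 of the 9 genes. The longest run of C and T on the sense strand was searched from 25 bases before to 50 bases after the start. It is printed in capitals within up to 30 bases. Coordinates follow each name.
Rpl7a, chr2:26910789-26910818, plus strand: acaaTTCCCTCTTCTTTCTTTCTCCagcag
Rpl35, chr2:39005115-39005144, minus strand: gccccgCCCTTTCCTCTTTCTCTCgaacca
Rpl26, chr11:68901579-68901608, plus strand: gcgtgtagTTCTCTTTCCTTTTgcggccat
Rpl39, chrX:37085173-37085194, minus strand: ggtcccggCCTTTCTCTTCTCC
Rpl37, chr15:5116632-5116661, plus strand: gcgggggtgCTTTCTCTTCCggtctctttg
Rpl13, chr8:123102324-123102353, plus strand: cgtgacgtcaCTTCCCTTTCgcctgatttt
Rpl27, chr11:101442226-101442255, plus strand: cggaacgctctgTTCCTgtctgctgctcgt

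The run was 21 bases in Rpl7a and 18 in Rpl35, and it spanned the start of the RefSeq start region in both. For Rpl7a that start lies inside the gene span given by RefSeq (chr2:26910685-26913312), so it is not the outermost annotated one. In Rpl26, Rpl39 and Rpl37 runs of 14, 14 and 11 bases began 22, 37 and 29 bases into the transcript. The run of Rpl39 reached the end of the searched window, so that its 14 bases are a minimum. The run of 10 bases in Rpl13 began 16 bases before the start, and Rpl27 held no run over 5 bases. A run of at least 8 bases lay in 6 of these 7 windows and in 27.0% of all 32544 start regions, where the median run was 6 bases. These are matches of letters in a window whose start is an annotation, and the start was not measured in these cells.

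The arrays first had to show the induction and the weight of the dyes. The 3 clones of Eif4e itself were higher in induced over uninduced total RNA of 3T3-tTA-eIF4E than of 3T3-tTA by 2.69 to 3.75 on the log2 scale, with no overlap between arrays, yet limma on extraction means called 0 of the 3 for that difference (adjusted p 0.438 to 1.00, with 3 of 3 at an unadjusted p under 0.05). Within 3T3-tTA-eIF4E it called 1 of the 3 (2.75, adjusted p = 0.0762). A total RNA change that this test did not call is therefore not shown to be small. The deposited values are log2 ratios of Cy3 over Cy5 and were turned by the dyes in the labels. Arrays of the same line with opposite dyes then had correlations across clones from -0.61 to 0.14 for total RNA and from -0.42 to 0.13 for polysomal RNA, whereas arrays of different lines with the same dye had 0.40 to 0.62 and 0.30 to 0.82. The labels' dyes were followed for the direction, and the polysomal difference of each member is given for both dye orientations.

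Polysome loading below is the log2 ratio of heavy polysomal to total RNA. The authors normalized each array by lowess, so 0 stands for the typical clone of similar brightness on that array. The typical clone has that meaning below. Each value is an average over the cells of a culture, so fewer cells of a kind within it and less of an RNA per cell cannot be told apart. The plot of polysomal ratios by line shows the 9 clones. In 3T3-tTA-eIF4E 7 of the 9 lay above 0 on all 4 arrays, against 12.4% of all clones, and in 3T3-tTA 3 of the 9 did, against 7.72%. The arrays of the lines overlapped for all 9 clones (1.34% of all clones did not overlap). Below 0 on all 4 arrays was 1 member in 3T3-tTA, Rpl7a, against 7.53% of all clones, and none in 3T3-tTA-eIF4E, against 11.0%.

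**Figure D1:**
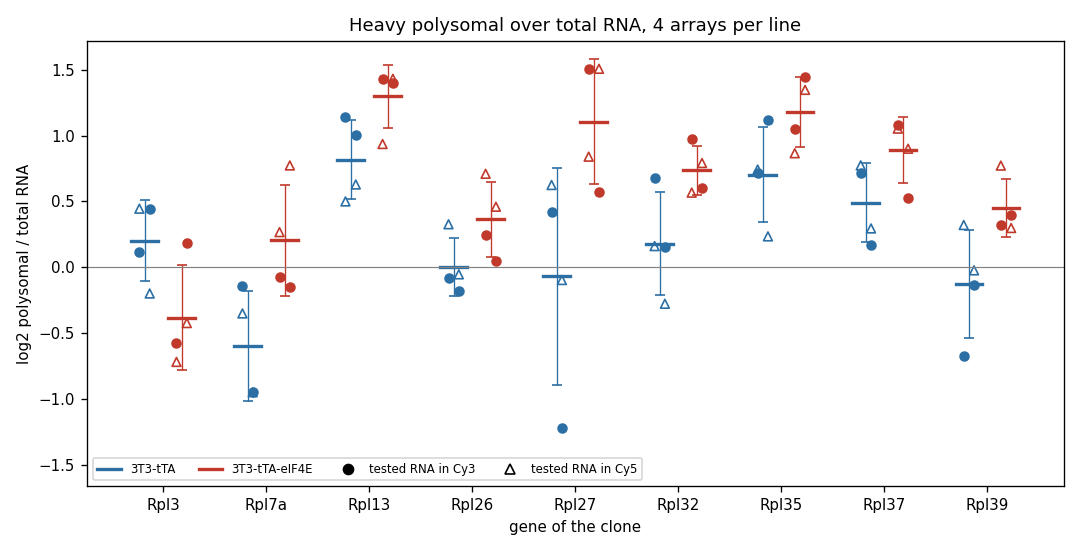
Log2 ratio of heavy polysomal to total RNA (y axis) for the clone of each gene (x axis) on 4 arrays of 3T3-tTA (blue) and 4 of 3T3-tTA-eIF4E (red). Filled circles are arrays with polysomal RNA in Cy3 and open triangles in Cy5, horizontal lines are means and error bars are SD over 4 arrays. The red mean lies above the blue one for 8 genes and below it for Rpl3, and the arrays of the lines overlap for every gene.

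Among the proteins at the peptide exit, Rpl35 forms part of the site at which the signal recognition particle and chaperones dock. Its ratios in 3T3-tTA-eIF4E were 0.87, 1.35, 1.05 and 1.44 on P1, P3, P5 and P7. In 3T3-tTA they were 0.72, 1.12, 0.74 and 0.23 on P9, P11, P13 and P15. Rpl35 was thus above the typical clone on all 8 arrays, and P11 of the parental line lay within the range of the other line. The means were 1.18 ± 0.27 and 0.70 ± 0.36 (SD, n = 4 arrays each), a difference of 0.47, with 0.33 on the Cy3 arrays and 0.62 on the Cy5 arrays.

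Rpl26 also lies near the tunnel exit and is known for binding the p53 mRNA after DNA damage. Its ratios were 0.71, 0.46, 0.25 and 0.05 on P1, P3, P5 and P7 of 3T3-tTA-eIF4E. They were -0.08, -0.18, 0.33 and -0.05 on P9, P11, P13 and P15 of 3T3-tTA. The parental arrays lay around the typical clone, with P13 above 2 arrays of the other line. The difference of 0.36, or 1.29-fold, was the lowest of the 8 genes, with 0.28 on Cy3 arrays and 0.45 on Cy5 arrays.

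Rpl39 is a small protein in the wall of the exit tunnel. It had ratios of 0.77, 0.30, 0.32 and 0.40 on P1, P3, P5 and P7. In the parental line they were -0.67, -0.13, 0.32 and -0.02 on P9, P11, P13 and P15. P9 was the lowest array, and P13 reached the level of P5. The difference was 0.57, with 0.76 on Cy3 arrays and 0.39 on Cy5 arrays. On P11 the scanner's local background around the Rpl39 spots in the total RNA channel was 9237, above the spots' own 5175, so that this array gave no usable background-corrected ratio for Rpl39.

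Rpl3 reaches toward the peptidyl transferase centre and is needed early in the assembly of the subunit. It was the member with the lower polysomal ratio in 3T3-tTA-eIF4E. Its ratios there were -0.72, -0.42, -0.58 and 0.19 on P1, P3, P5 and P7. In 3T3-tTA they were 0.12, 0.44, 0.44 and -0.20 on P9, P11, P13 and P15. P7 stood above P9 and P15, and the other arrays of 3T3-tTA-eIF4E lay below every parental array. The difference was -0.59, with -0.48 on Cy3 arrays and -0.69 on Cy5 arrays. On the 4 scanned arrays P3, P7, P11 and P15 alone it was -0.24.

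Rpl7a is encoded by a gene that hosts small nucleolar RNAs in its introns. Its ratios were 0.27, 0.77, -0.07 and -0.15 on P1, P3, P5 and P7, and those of 3T3-tTA were -0.14, -0.95, -0.35 and -0.95 on P9, P11, P13 and P15. It was below the typical clone on every parental array and on both sides of it in 3T3-tTA-eIF4E, from P3 as the highest array to P7, which fell just under P9. The difference of 0.80, or 1.74-fold, was 0.43 on Cy3 arrays and 1.17 on Cy5 arrays, and it was 0.47 with the total RNA on P1 to P7 read as uninduced, as labelled. The signal of this clone was low. Its foreground was 1.97 to 7.10 times the local background on the 4 scanned arrays. There the difference was 1.26 from the deposited values and 0.59 once the background had been taken off. Unlike its list, the study's text names L7a as a ribosomal protein with no polysome shift of its mRNA. It reports that L7a protein neither rose on eIF4E induction nor fell when eIF4E was knocked down.

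Rpl27, a structural protein of the subunit, had the largest difference of the 9 clones and the widest spread. Its ratios were 0.84, 1.51, 1.51 and 0.57 in 3T3-tTA-eIF4E, and 0.42, -1.22, 0.62 and -0.10 in 3T3-tTA, in the order of arrays used above. P11 stood far below the other parental arrays, and P7 and P13 overlapped. The difference of 1.18, or 2.26-fold, was 1.44 on Cy3 arrays and 0.91 on Cy5 arrays, and 0.80 without P11. Its duplicate spots on P9 read -0.38 and 1.22, the widest gap between duplicates among the members (median gap 0.0886 over 16 arrays).

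Rpl13 had the highest loading of the 9 in either line, with 0.94, 1.43, 1.43 and 1.40 in 3T3-tTA-eIF4E and 1.14, 1.01, 0.50 and 0.63 in 3T3-tTA. All 8 arrays were above 0. P1 was the low array of its group, below P9 and P11 of the parental line. The difference was 0.48, with 0.34 on Cy3 and 0.62 on Cy5 arrays.

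Rpl32, whose mRNA has long served as a model of oligopyrimidine tract control, had 0.57, 0.79, 0.98 and 0.60 in 3T3-tTA-eIF4E and 0.68, 0.15, 0.16 and -0.28 in 3T3-tTA. P9 was the one parental array within the range of the other line. The difference of 0.56 was 0.38 on Cy3 and 0.74 on Cy5 arrays.

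Rpl37, a zinc-binding protein of the subunit, had 1.05, 0.90, 1.08 and 0.53 in 3T3-tTA-eIF4E and 0.72, 0.17, 0.77 and 0.29 in 3T3-tTA. It was above the typical clone on all 8 arrays, and P7 lay below P9 and P13. The difference of 0.40 was 0.36 on Cy3 and 0.44 on Cy5 arrays.

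Over the 9 clones the sign of the polysomal difference was the same on both dye orientations. It was positive on both for 8 clones, against 29.0% of all 15247, and the study's list, which chose them, was made from these same arrays. Without any single array the median of the 8 genes stayed between 0.45 and 0.58, beside 0.52 with all arrays and 0.01 over all clones. As antilogs of the mean log2 difference, 7 clones were at least 1.3-fold higher in 3T3-tTA-eIF4E, against 9.09% of all clones, and Rpl3 was at least 1.3-fold lower, against 9.78%. Nothing is read from these shares, since the difference chose the clones. Rpl26, at 1.29-fold, was the member nearest the study's limit of 1.3-fold, and the study reached its folds by its own averaging. Clones just outside that limit had no gene name in the sources used here, so none is given. If the total RNA on P1 to P7 is read as uninduced, as labelled, the median becomes 0.43. Of 72 spot measurements of the members on the 4 scanned arrays, 70 were over 1.5 times the local background in both channels and 0 were saturated.

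The average loading over both lines is a different contrast from the difference that chose the clones, but it comes from the same polysomal arrays. The study's statistic also took in the spread on those arrays, on which the SE below rests. The choice of the clones is therefore not independent of this test, and the shares over all clones come from clones not so chosen. The average was tested against 0, the typical clone. By limma on extraction means, 2 of the 9 clones were called at an adjusted p under 0.1 and at least 1.3-fold, beside 2.13% of all clones (324 of 15247). Both were higher on polysomes. Rpl13 had a mean of 1.06 (SE 0.11, adjusted p = 0.066) and Rpl35 a mean of 0.94 (SE 0.14, adjusted p = 0.085). Both calls were lost when P9 or P11 of the parental line was left out. With Cy5 arrays alone 0 members were called, and with Cy3 arrays alone 4 were. Without P9 the adjusted p was 0.113 for Rpl13 and 0.156 for Rpl35, and without P11 it was 0.1 and 0.155. The call of Rpl35 was also lost without P3 (adjusted p = 0.106) or P7 (adjusted p = 0.116), and the values themselves moved little. With the extractions of the lines paired as a replicate block in limma, chosen after seeing the data, 0 members were called.

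Rpl37 had a mean loading of 0.69 (SE 0.13, adjusted p = 0.116), Rpl32 of 0.46 (SE 0.13, adjusted p = 0.232) and Rpl27 of 0.52 (SE 0.24, adjusted p = 0.417), and limma on extraction means called none of these. Without P15 Rpl37 was called (0.74, adjusted p = 0.0737). The means of Rpl26 and Rpl39 were 0.18 (SE 0.11) and 0.16 (SE 0.13), close to the typical clone. Those of Rpl3 and Rpl7a were -0.09 (SE 0.15) and -0.20 (SE 0.15). When single arrays were left out, Rpl3 ran from -0.026 (without P5) to -0.18 (without P7) and Rpl7a from -0.10 (without P15) to -0.31 (without P9), so that their order is not settled. Rpl7a and Rpl35, with the longest runs of pyrimidines printed above, had mean loadings of -0.20 and 0.94. At an unadjusted p under 0.05 there were 4 members, Rpl13, Rpl35, Rpl37 and Rpl32, beside 14.4% of all clones. With arrays in place of extractions limma called the same 4 members, beside 11.2% of all clones, on the assumption that the arrays of an extraction are independent.

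**Figure D2:**
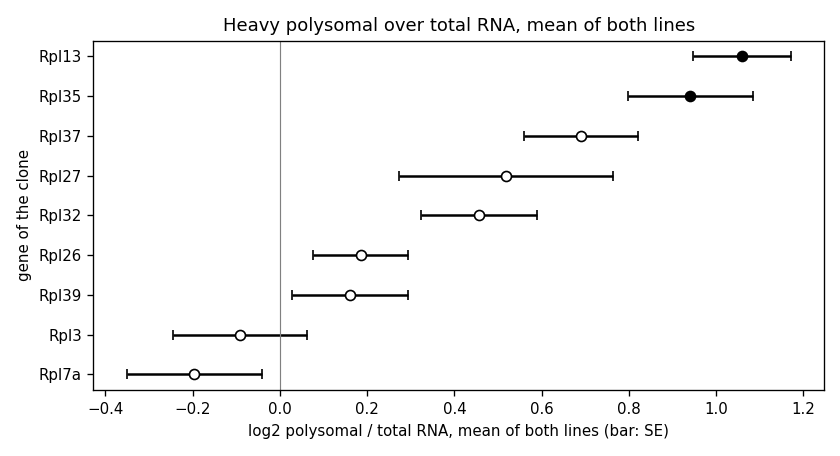
Log2 ratio of heavy polysomal to total RNA averaged over both lines (x axis) for the clone of each gene (y axis), with SE from limma as bars. Filled points, Rpl13 and Rpl35, passed an adjusted p under 0.1 and 1.3-fold, and the 9 means run from -0.20 to 1.06. Neither call held with the extractions of the lines paired.

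Other ribosomal protein clones of the study's list were taken as a comparison that was chosen by the same polysomal difference. The median of the average loading was 0.46 for the 9 clones, 0.40 for the 8 other clones of the large subunit and 0.72 for the 8 clones of the small subunit, beside 0.04 over all clones. By limma on extraction means 4 of 8 small subunit clones were called as higher, Rps24 by both of its clones, Rps26 and Rps3a. Of the other large subunit clones 0 of 8 were called, beside 2.13% of all clones. At an unadjusted p under 0.05 there were 8 of 8 and 5 of 8, beside 14.4% of all clones. Clones of the same gene are not separate cases. The study's list names Rpl12, Rpl15, Rpl23 and Rpl29 as the other large subunit genes, fewer than their 8 clones. The small subunit clones also outnumber their genes. The mitochondrial clone had 0.48 and was not called, with an unadjusted p under 0.05 by limma. Of 6 clones of translation factors 0 were called, with a median of 0.18, and 1 of 6 had an unadjusted p under 0.05. Among them were the clones of the induced Eif4e itself, with 0.42, 0.14 and 0.34. Their polysomal differences between the lines were -0.07, 0.03 and -0.07. The difference between these lists was not tested. In total RNA 0 of the 8 large and 0 of the 8 small subunit clones were called between the lines by limma, beside 0% of all clones. At an unadjusted p under 0.05 there were 0 of each, beside 0.446%.

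Total RNA was measured on other arrays than those that chose the clones, and it asks whether the mRNAs themselves changed in 5 hr of induction. By limma on extraction means 0 of the 9 were called as different between the lines, 0 at an unadjusted p under 0.05 and 0 by SAM, the test of the study's methods, on spot pairs matched by dye. SAM called 0.367%, 0.249%, 0.295% and 0.151% of all clones under the 4 possible pairings. It was rewritten here and, as in the study, took duplicate spots as independent, so its pairs outnumber the extractions. Over all clones limma called 0 of 15247 (0%), with 68 (0.446%) at an unadjusted p under 0.05. The differences ran from -0.10 for Rpl37 to 0.37 for Rpl7a, with a median of 0.02 beside -0.01 over all clones. That median was -0.13 without T13, with 1 of 9 above 0, and 0.20 without T15, with 8 of 9 above 0. The arrays of the lines overlapped for all 9 clones, and 0.918% of all clones did not overlap.

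**Figure D3:**
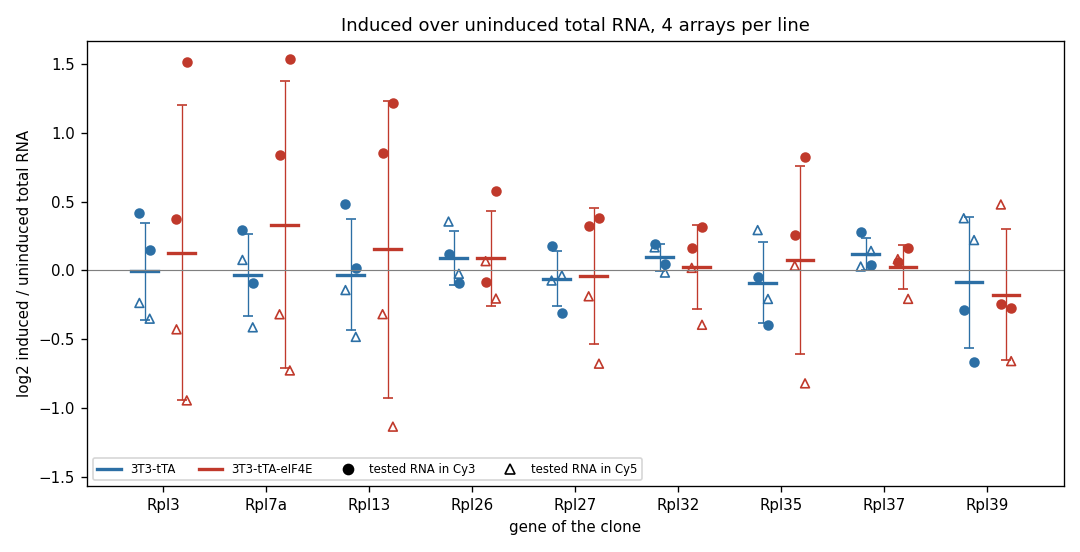
Log2 ratio of induced to uninduced total RNA (y axis) for the clone of each gene (x axis) on 4 arrays of 3T3-tTA (blue) and 4 of 3T3-tTA-eIF4E (red), with symbols, means and SD bars as in the plot of polysomal ratios. The red arrays spread more than the blue ones, from -1.14 to 1.54, and the means of both lines lie within 0.37 of each other.

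Rpl7a had induced over uninduced ratios of -0.32, 0.84, 1.54 and -0.73 on T9, T11, T13 and T15 of 3T3-tTA-eIF4E. In 3T3-tTA they were 0.30, 0.08, -0.41 and -0.09 on T1, T3, T5 and T7. The arrays T11 and T13, with induced RNA in Cy3, were high and the Cy5 arrays T9 and T15 low. The difference of 0.37 (SE 0.25, adjusted p = 1.00) was 1.09 on Cy3 arrays and -0.35 on Cy5 arrays, and 0.08 without T13.

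Rpl3 and Rpl13 had the same pattern. On T9, T11, T13 and T15 Rpl3 had -0.43, 0.37, 1.52 and -0.95, and Rpl13 had -0.32, 0.85, 1.22 and -1.14. In the parental line, on T1, T3, T5 and T7, Rpl3 had 0.41, -0.24, -0.35 and 0.15 and Rpl13 had 0.48, -0.14, -0.48 and 0.02, again high with Cy3. The dye terms of Rpl3, Rpl7a and Rpl13 in total RNA were 0.55, 0.50 and 0.58 on the log2 scale, beside an SD of 0.22 over all clones. The differences between the lines were 0.14 (SE 0.29) for Rpl3 and 0.18 (SE 0.25) for Rpl13, with an adjusted p of 1.00 by limma for both.

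Rpl32 and Rpl37 were the steadiest in total RNA. Rpl32 had 0.02, 0.17, 0.31 and -0.40 on T9, T11, T13 and T15, and 0.19, 0.17, -0.02 and 0.05 on T1, T3, T5 and T7. Rpl37 had 0.08, 0.06, 0.16 and -0.21, and 0.28, 0.03, 0.14 and 0.04 on the same arrays. T15 was the low array for both, and the lines differed by -0.07 (SE 0.14) for Rpl32 and -0.10 (SE 0.13) for Rpl37, the latter from -0.15 (without T7) to -0.028 (without T15) when single arrays were left out. Rpl26, Rpl27, Rpl35 and Rpl39 differed by 0.00 (SE 0.20), 0.02 (SE 0.15), 0.16 (SE 0.28) and -0.09 (SE 0.22). Each had an adjusted p of 1.00 by limma on extraction means.

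In total RNA the sign differed between the dye orientations for 8 of the 9 clones, and Rpl37 was below 0 on both (-0.04 on Cy3 and -0.15 on Cy5 arrays). On Cy3 arrays 8 of the 9 differences between the lines were above 0, and on Cy5 arrays 0 of 9 were. On both orientations 0 of the 9 clones were higher in 3T3-tTA-eIF4E, beside 16.2% of all clones. The plot of differences by dye sets these beside the polysomal differences, whose sign was largely fixed by the choice of the clones.

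**Figure D4:**
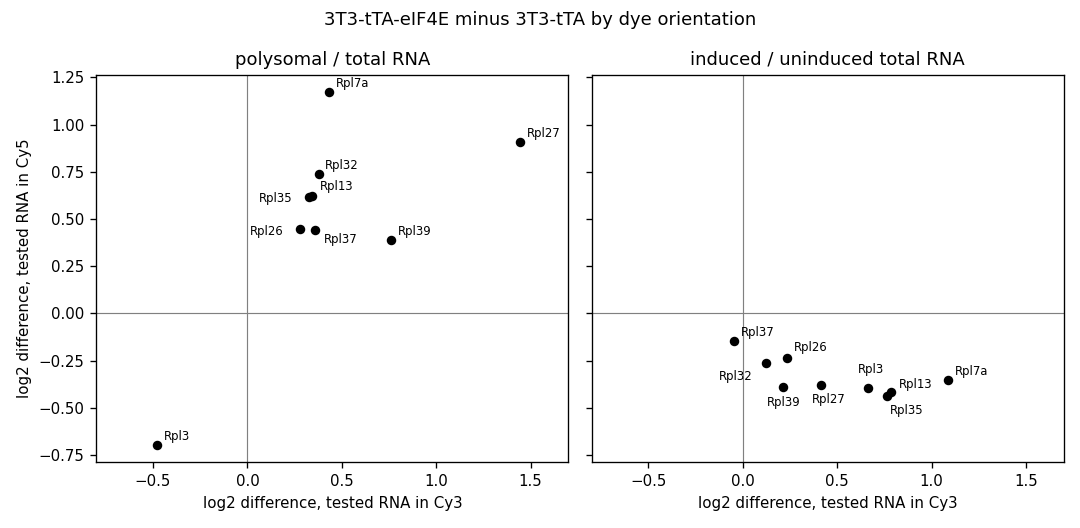
Log2 difference between 3T3-tTA-eIF4E and 3T3-tTA on arrays with the tested RNA in Cy3 (x axis) and in Cy5 (y axis), each from 2 arrays per line, for polysomal over total RNA (left) and induced over uninduced total RNA (right). Each point is the clone of a gene. On the left 8 clones lie above 0 on both axes and Rpl3 below 0 on both, and on the right all 9 lie below 0 on the Cy5 axis and 8 above 0 on the Cy3 axis.

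The change of total RNA after loss of tetracycline was also tested within each line. In 3T3-tTA-eIF4E it ran from -0.18 (Rpl39) to 0.33 (Rpl7a) with a median of 0.07, as means over dye orientations that lay apart. Rpl13 had 1.04 on Cy3 and -0.73 on Cy5 arrays, Rpl7a 1.19 and -0.52, and Rpl3 0.94 and -0.69. The median was -0.09 without T13, with 1 of 9 above 0, and 0.19 without T15, with 9 of 9 above 0. The change of Rpl7a was 0.049 without T13 and 0.56 without T15. Limma on extraction means called 0 of the 9, beside 0.0131% of all clones, with 0 members at an unadjusted p under 0.05, beside 3.31%. With the Cy5 arrays alone 1 member was called there, Rpl3, with -0.69 and an adjusted p of 0.0693 by limma, beside 6.95% of all clones at that setting. In 3T3-tTA the change ran from -0.09 (Rpl35) to 0.12 (Rpl37) with a median of -0.03, which was 0.17 without T7, with 9 of 9 above 0, and -0.14 without T3, and 0 of the 9 were called, beside 0% of all clones, with 0 members at an unadjusted p under 0.05, beside 4.16%. Rpl37 was above 0 on all 4 parental arrays, as were 8.40% of all clones, and none of the 9 was below 0 on all 4 (8.15%). In 3T3-tTA-eIF4E none was above 0 on all 4 arrays (3.67%) or below on all 4 (3.76%).

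The members moved together from array to array. On T13, 8 of the 9 were above 0, with a median of 0.58, where 46.8% of all clones were. On T15 none of the 9 was, with a median of -0.68, where 51.4% of all clones were above 0. With the dye term taken out the members had pairwise correlations over the 8 total RNA arrays from 0.26 to 0.99, with a mean of 0.75, and 36 of 36 pairs were above 0. The mean over all pairs of clones was 0.0038. On the polysomal arrays the 8 genes without Rpl3 had a mean of 0.67, with 28 of 28 pairs above 0, and pairs with Rpl3 were below 0 in 8 of 8. With the dye term left in, 33 of 36 pairs in total RNA and 29 of 36 on the polysomal arrays were above 0. The members share the arrays and the extractions, and on the polysomal arrays the choice of the clones fixes part of this sign.

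The named clones with the profile most like the mean of the 8 genes over 16 arrays were those of Rps15a (r = 0.96), Np15 (r = 0.95), Rps26 (r = 0.94), Tomm20 (r = 0.93) and Ssr4 (r = 0.92), of 538 compared. Rps15a and Rps26 encode small subunit proteins, Tomm20 a receptor of the mitochondrial import machinery and Ssr4 a subunit of the translocon-associated complex of the endoplasmic reticulum. For Rpl3 the nearest were Grb10 (r = 0.79), Pak2 (r = 0.77), 4930562C15Rik (r = 0.75), Anxa1 (r = 0.71) and Gspt1 (r = 0.71). All 10 came from the study's polysomal list, the dye term had been taken out, and the values are descriptions with no test.

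In RefSeq (GRCm38.p6) Rpl3 at chr15:80077781-80083406 was read by clone H3122F09, Rpl7a at chr2:26910685-26913312 was read by clone H3144G03, and Rpl13 at chr8:123102350-123105244 was read by clone H3111G11. Rpl26 at chr11:68901566-68904534 was read by clone H3030E08, Rpl27 at chr11:101442245-101445596 was read by clone H3042C11, and Rpl32 at chr6:115805514-115808743 was read by clone H3064D10. Rpl35 at chr2:39001581-39005131 was read by clone H3117C06, Rpl37 at chr15:5116613-5119140 was read by clone H3133F06, and Rpl39 at chrX:37082518-37085222 was read by clone H3106G02. Of the 9 accessions, 6 were found in RefSeq and all 6 carried the listed symbol, and those of Rpl27, Rpl35 and Rpl39 were named by the study's list alone. RefSeq names at least 1 pseudogene after each of the 9 genes, 14 after Rpl7a, 6 each after Rpl13 and Rpl26, 3 after Rpl27, 2 after Rpl3 and 1 after each of the others. A cDNA clone also binds transcripts of near-identical copies, so the values may include them.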

How the data were processed

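The deposited values are log2 ratios of Cy3 over Cy5 per spot, which the authors made from GenePix scans with limma (whole-array lowess, local background not subtracted). For P3, P7, P11 and P15 deposited scanner intensities were used. Log2 ratios were recomputed from these, and each deposited row was matched to the spot pair with the nearest ratios, since no names could join them. After that matching they correlated at 0.994 or more with the table, in part by construction. Scale and direction were taken from this there, and the remaining arrays were taken to run the same way. Genome positions are RefSeq's. After averaging duplicate spots, each clone's dye term was removed by least squares and limma 3.58.1 (R 4.3.3) was run on means of the 2 extractions. Which arrays share an extraction is not given in the sources used here, so 4 assignments were fitted, and the highest of their p-values was adjusted by Benjamini-Hochberg over 15247 clones. Fits were checked on simulated data. Members, lists and alternatives were chosen with earlier results of these data known. Named were the 9 members, Eif4e, and the 5 named clones most like the mean of the 8 genes and the 5 most like Rpl3. The other ribosomal protein clones and translation factors were those named in the study's lists. With 2 extractions per group, precision is limited by their number.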

Additional observations from a re-analysis of the deposited data

Results flagged for a closer look

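In 1 of 36 groups of 4 arrays tested, 9 clones in 4 groups each, an array stood apart from the others of its group by a wide gap (Dixon's test, which chance passes in about 5% of groups). It was Rpl13 on P1, with a log2 polysomal to total RNA ratio of 0.94 in 3T3-tTA-eIF4E, where the other arrays read 1.40 to 1.43.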

How the results depend on the processing

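Each group held 2 extractions, and the arrays of opposite dye orientation gave most total RNA values opposite signs. The cause of the changes below was not tested. The study paired its arrays by dye and experimental set, and which extractions share a set is not given in the sources used here. With the extractions of the lines paired as a replicate block in limma, chosen after seeing the data, and the largest p over 8 pairings kept, 0 clones were called for the total RNA difference (28 at an unadjusted p under 0.05). For the average polysome loading 0 clones and 0 members were called in the same way (1248 at an unadjusted p under 0.05), with adjusted p 0.386 for Rpl13 and 0.399 for Rpl35. Such a fit rests on 2 pairs, and a call lost under it does not show a weaker effect. The polysomal difference, which chose the members, had the same sign for all 9 under each alternative tried on the deposited values, which is no independent support for it. An alternative chosen after seeing the data took off the local background on the 4 scanned arrays, and it reversed Rpl39 to -1.25, where the background on P11 exceeded the signal, and kept the other 8.

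The number of clones called for the total RNA difference was 0, and 3 with arrays as replicates, 2 with the second duplicate spot, 4 with Cy5 arrays, 56, 38, 45 and 23 by SAM under the 4 pairings, and 0 to 4 when single arrays were left out. For the change in 3T3-tTA-eIF4E it was 2, and 7 with arrays as replicates, 0 with median centring, 4 with scaling, 5 with the second spot, 0 with Cy3 arrays, 1060 with Cy5 arrays (1 member), and 0 to 5 without single arrays. For the average polysome loading it was 324, and 1708 with arrays as replicates, 872 with scaling, 187 with the second spot, 2910 with Cy3 arrays, 60 with Cy5 arrays, and 64 (without P9) to 715 (without P15) without single arrays. The members called there were 2, and 4 with arrays as replicates or Cy3 arrays, 0 with Cy5 arrays, and 0 (without P9 or P11) to 3 (without P15) without single arrays.

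On Cy5 arrays alone the total RNA difference became -0.39 for Rpl3, -0.35 for Rpl7a, -0.41 for Rpl13, -0.23 for Rpl26, -0.38 for Rpl27 and -0.44 for Rpl35. On Cy3 arrays alone it became 0.12 for Rpl32 and 0.21 for Rpl39. Scaling gave -0.0064 for Rpl3, -0.044 for Rpl26 and 0.0085 for Rpl39, and the second spot gave -0.028 for Rpl26 and -0.044 for Rpl27. Left-out arrays gave ranges of -0.20 to 0.34 for Rpl3, -0.028 to 0.47 for Rpl13, -0.18 to 0.12 for Rpl26, -0.16 to 0.20 for Rpl27, -0.14 to 0.049 for Rpl32, -0.070 to 0.45 for Rpl35 and -0.26 to 0.20 for Rpl39. The lowest value came without T13 for Rpl3, Rpl26, Rpl32 and Rpl35, without T7 for Rpl13 and Rpl27, and without T9 for Rpl39.

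In 3T3-tTA-eIF4E the change on Cy5 arrays was -0.69 for Rpl3, -0.52 for Rpl7a, -0.73 for Rpl13, -0.068 for Rpl26, -0.19 for Rpl32, -0.39 for Rpl35 and -0.062 for Rpl37, and on Cy3 arrays 0.35 for Rpl27. Scaling gave -0.012 for Rpl3 and the second spot -0.013 for Rpl32. Left-out arrays gave -0.20 to 0.34 for Rpl3, -0.039 to 0.44 for Rpl13, -0.090 to 0.19 for Rpl26, -0.13 to 0.14 for Rpl27, -0.042 to 0.15 for Rpl32, -0.16 to 0.37 for Rpl35, -0.022 to 0.094 for Rpl37 and -0.34 to 0.11 for Rpl39. In 3T3-tTA the change on Cy3 arrays was 0.28 for Rpl3, 0.10 for Rpl7a and 0.25 for Rpl13, on Cy5 arrays 0.043 for Rpl35 and 0.30 for Rpl39, and with the first spot 0.011 for Rpl3. Left-out arrays gave -0.14 to 0.15 for Rpl3, -0.28 to 0.19 for Rpl7a, -0.22 to 0.18 for Rpl13, -0.033 to 0.18 for Rpl26, -0.15 to 0.12 for Rpl27, -0.31 to 0.10 for Rpl35 and -0.18 to 0.049 for Rpl39. The average polysome loading on Cy3 arrays was 0.042 for Rpl3 and -0.022 for Rpl39, where all 8 arrays gave -0.09 and 0.16.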
